A study of Drosophila melanogaster with 3 samples.

Results

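The regions described are the Phol peaks on chromosome 4 of Drosophila melanogaster, taken as every peak of the pooled peak list that lies on this chromosome. There are 161 of them among the 30000 peaks of the list. All 3 samples are of 1 kind: whole embryos, pooled male and female, aged 0 to 16 hours, from a transgenic line with green fluorescent protein at the C terminus of Phol. Their chromatin was sonicated to a size range of 200 to 800, and the DNA recovered with an anti-GFP antibody was sequenced. The 3 biological replicates have a peak list each, with 208, 134 and 176 peaks on chromosome 4 in replicates 1, 2 and 3. The pooled list comes from the reads of all 3, and 10264 of its peaks form a further list that passed the authors' threshold on reproducibility, called the reproducible list here. There is no second condition, the control alignment was not analysed here, and the labels do not say whether the line still had untagged Phol, which promoter drove the transgene, or whether the replicates came from separate embryo collections. The peaks therefore describe tagged Phol averaged over all the cells of the embryo, and read depth is unknown.

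Phol is a zinc-finger protein that binds DNA and, with its paralog Pho, brings Polycomb group repressor complexes to their target sites. Both proteins read sites with the core GCCAT. Chromosome 4 is the smallest chromosome of this fly. Much of it is packed as heterochromatin, with repeats and heterochromatin protein 1 interspersed among genes that are nevertheless expressed, and its genes are also coated by the chromosome-specific protein POF. The gene for Pho itself, pho, lies on this chromosome.

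The sequence at the summits of some of the peaks described below is shown first, to set those that hold the extended Pho and Phol site GCCATNTT (N is any base) beside strong ones that do not. Each run is the plus strand of the release 6 genome, from RefSeq, 5′ to 3′, up to 50 bases to either side of the summit. Capitals mark GCCATNTT on either strand, and runs in lower case hold no match. The run at CG31998 is cut to the 97 bases outside untranslated regions, and the MED26 summit lies in an untranslated region, of which only a 30-base stretch around the match is shown.
pan, chr4:68892-68992: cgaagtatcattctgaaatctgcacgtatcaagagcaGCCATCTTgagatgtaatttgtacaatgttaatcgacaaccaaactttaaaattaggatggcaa
MED26, chr4:787569-787598: tattacaattcGCCATTTTtaccaatgaca
asRNA:CR44029, chr4:879140-879240: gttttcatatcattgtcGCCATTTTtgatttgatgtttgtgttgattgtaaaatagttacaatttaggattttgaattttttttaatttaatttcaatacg
Actbeta, chr4:1084825-1084925: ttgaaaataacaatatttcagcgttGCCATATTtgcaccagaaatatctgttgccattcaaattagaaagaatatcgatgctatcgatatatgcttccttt
ey coding exon, chr4:717724-717824: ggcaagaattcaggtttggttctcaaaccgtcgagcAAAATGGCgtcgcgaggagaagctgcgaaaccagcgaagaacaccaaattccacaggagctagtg
CG31998, chr4:205946-206042: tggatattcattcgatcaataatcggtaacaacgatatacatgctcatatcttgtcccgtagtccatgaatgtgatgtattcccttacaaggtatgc
PlexA, chr4:1027236-1027336: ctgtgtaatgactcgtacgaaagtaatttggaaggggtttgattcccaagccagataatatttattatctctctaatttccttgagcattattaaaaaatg
pho, chr4:1181891-1181991: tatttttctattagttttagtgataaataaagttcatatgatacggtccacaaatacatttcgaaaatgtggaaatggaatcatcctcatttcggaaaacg

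The strongest peaks of chromosome 4 lay at the starts of genes for a Wnt effector, a plexin, a Mediator subunit, a Sox factor and a ribosomal protein. Strength is given as the rank of a peak by the authors' signal value in a list of 30000, or that rank as a percent of the list, so that a low percent is a strong peak. The strongest of all was at pan, which encodes the TCF transcription factor of the Wnt pathway (peak chr4:68555-69355, summit 384 bp upstream of an annotated start). It was ranked 430 in the pooled list and stood at 1.60%, 1.70% and 1.25% of the lists of replicates 1, 2 and 3. CG31998 followed with a summit 47 bp upstream of its start, at 2.18%, 1.64% and 2.10%. At PlexA, a semaphorin receptor gene, the values were 2.88%, 1.72% and 1.79%, with the summit 185 bp upstream. At MED26, a subunit of the Mediator coactivator, they were 2.49%, 2.54% and 1.52%, with the summit 34 bp inside the transcript. Each of these 4 peaks was among the strongest 3% of every replicate list.

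Of the 15 strongest chromosome 4 peaks, 11 had their summit at a promoter, meaning within 500 bp of an annotated start of any gene. All 15 had a summit within 250 bp in each of the 3 replicate lists, the distance that counts as a match throughout. Of the reproducible peaks of the other arms, which reach to weaker ranks, 49.4% were at promoters and 97.9% were matched in all 3 lists. The promoter peak of Sox102F, a Sox family transcription factor gene, stood at 4.49%, 3.06% and 2.65% in replicates 1, 2 and 3. That of RpS3A, a protein of the small ribosomal subunit, stood at 2.92%, 2.67% and 4.22%. The peak of asRNA:CR44029, an antisense RNA gene inside unc-13, stood at 3.13%, 3.10% and 2.43%, while no start of unc-13 itself held a summit of the pooled list. After the first 8 peaks, which reached 3.20% of the pooled list, the strength fell away. The 15th, at Rad23, a ubiquitin-receptor gene with a part in DNA repair, was at 11.1%.

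The 4 strongest peaks away from starts were of several kinds. The fifth strongest of the chromosome had its summit in the 3′ UTR of Cals, which encodes the membrane protein calsyntenin, directly beyond the annotated end of sv, the Pax2 gene of the fly. It lay 9647 bp from the nearest start and stood at 1.85%, 2.55% and 3.22%. An intergenic peak 1259 bp upstream of lncRNA:CR43437 stood at 2.63%, 5.07% and 7.90%. Another intergenic peak, 4486 bp upstream of fuss, a gene of the Ski and Sno family of Smad partners, stood at 6.87%, 9.03% and 8.05%. The last, in the body of the protein kinase gene Asator 667 bp from a start, stood at 8.56%, 8.76% and 10.98%. Of these 4, the peak by lncRNA:CR43437 had the widest range over replicates.

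**Figure D1:**
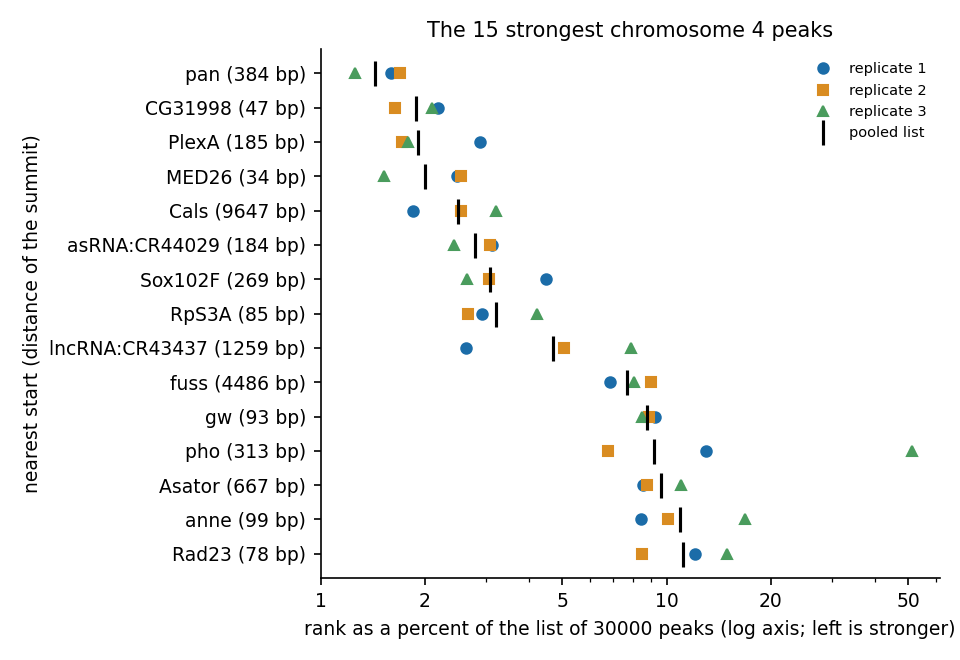
The 15 strongest Phol peaks of chromosome 4, by the gene of the nearest annotated start, with the distance of the summit in brackets. The horizontal log axis is the rank as a percent of a list of 30000 peaks, so that left is stronger. Symbols are the 3 replicates and the bar is the pooled list. The replicates lie close together at most peaks, and pho in replicate 3, at 51.2%, lies far to the right of its other values.

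The promoter of pho was occupied by tagged Phol, with replicates that differed widely in strength. The summit lay 313 bp upstream of the single annotated start of pho (peak chr4:1181650-1182081) and ranked 2753 in the pooled list, 12th on the chromosome. The peak stood at 13.02% of the list in replicate 1, 6.77% in replicate 2 and 51.2% in replicate 3 (mean 23.7% ± 24.1, SD, n = 3). It was in the reproducible list. The bases within 50 bp of its summit hold no GCCAT on either strand. It was the only pooled summit within 500 bp of a pho start, and the gene body held none.

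Peaks were sparser on chromosome 4 than on any other arm, counted by length. The pooled list held 121 summits per sequenced megabase of chromosome 4, which has 1.33 such megabases, against 226 on the other 5 arms together, where the arms ranged from 210 to 251. In the replicate lists the density was 156, 100.7 and 132 per megabase, a mean of 129.7 ± 27.9 (SD, n = 3), against 225.4 ± 0.277 elsewhere. Each list has 30000 peaks, nearly all of them on the other arms. The density elsewhere is therefore almost fixed by the size of the lists, and its SD does not measure agreement between replicates. Chromosome 4 differed from the other arms by -95.7 per megabase, with the same sign in 3 of 3 replicates (exact sign-flip permutation test, two-sided, p = 0.25, the smallest that 3 replicates allow). No comparison made this way can reach 0.05. Counted only over sequence that is not repeat-masked, the densities were 168 and 282 per megabase.

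Set against genes, the direction was not the same in all replicates. Chromosome 4 had 60.1 protein-coding genes per megabase and the other arms 105, so that there were 2.01 summits per gene on chromosome 4 and 2.15 elsewhere. In replicates 1, 2 and 3 chromosome 4 had 2.6, 1.68 and 2.2 summits per gene, against 2.15 elsewhere in each, so it was higher in 2 of 3. The value elsewhere is almost fixed by the size of the lists. Parts of the other arms rich in transposable elements were also sparse in peaks. In the 12 tiles of 100 kb of chromosome 4 with 15 to 40% of their bases in transposable elements, there were 131 summits per megabase. The 87 such tiles of the other arms held 114, and the 1204 tiles there with less than 15% held 239. Tiles of the other arms above 40% were in neither set. Over replicates the 2 sets of repeat-rich tiles had 140.3 ± 29.7 on chromosome 4 and 115.1 ± 1.76 elsewhere (SD, n = 3), a difference of 25.2 ± 31.3 (exact sign-flip permutation test, two-sided, p = 0.5). In those tiles 55.1% of the genes were occupied on chromosome 4 and 42.4% elsewhere. Repeats, gene density and chromosome move together here, and their part in the lower density was not tested.

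**Figure D2:**
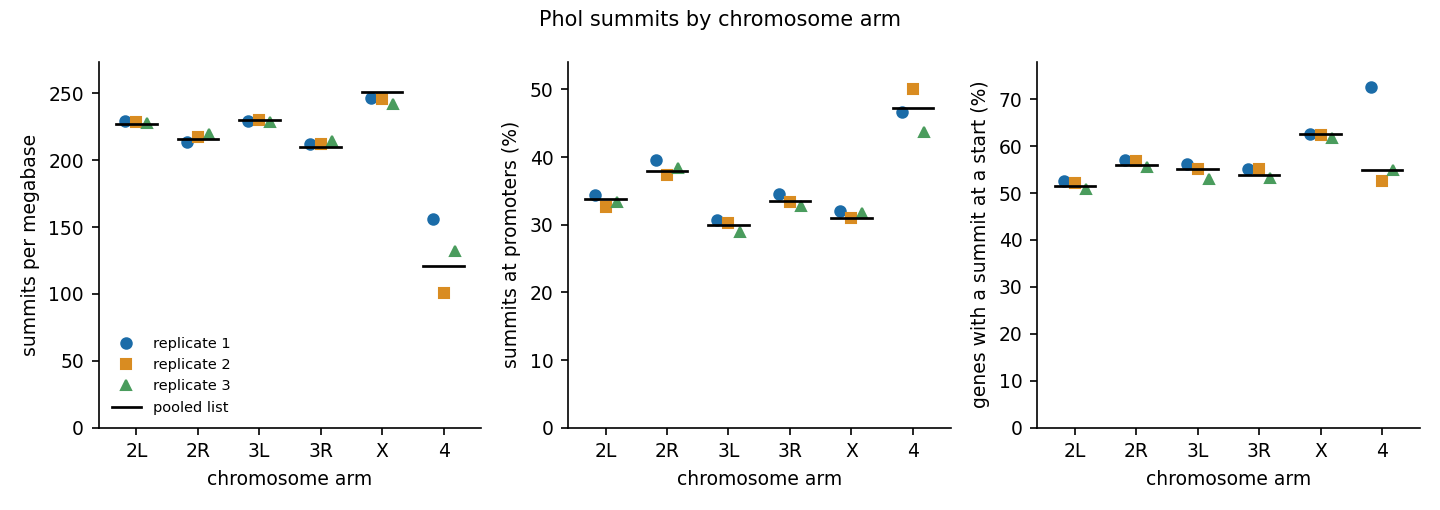
Phol summits on each chromosome arm: summits per sequenced megabase (left), percent of summits within 500 bp of an annotated start (middle), and percent of protein-coding genes with a summit within 500 bp of a start (right). Symbols are the 3 replicate lists and the bar is the pooled list. Chromosome 4 has the lowest density and the highest promoter share, and its replicates spread more widely than those of any other arm.

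In strength the chromosome 4 peaks spanned most of the range of the list. Their median rank was 41.6% of the pooled list, against 50.03% for the other arms. In replicates 1, 2 and 3 the median was 46.0%, 40.7% and 50.1%, against 49.997% to 50.04% elsewhere, and the direction held in 2 of 3 (exact sign-flip permutation test, two-sided, p = 0.5). Nearly all peaks of a list are on the other arms, so their median lies near its middle by construction. On chromosome 4 the middle of the pooled distribution ran from 23.3% at the lower quartile to 71.9% at the upper. At the top, 8 of the 161 were among the strongest 1000 peaks of the pooled list, or 4.97% of them, against 3.32% on the other arms. In replicates 1, 2 and 3 the counts were 8, 8 and 7, or 3.85%, 5.97% and 3.98%, against 3.32% to 3.33% elsewhere. The share was higher on chromosome 4 in 3 of 3 (exact sign-flip permutation test, two-sided, p = 0.25), but rests on 7 or 8 peaks in each list.

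The reproducible list held 59 of the 161 chromosome 4 peaks, or 36.6% (Wilson 95% interval 29.6 to 44.3, which covers counting error only), against 34.2% of all pooled peaks. That list is the strongest 10264 of the pooled peaks, so membership is a matter of rank. The weakest member in it, in the body of Asator, ranked 10206, and the strongest outside it, at the start of CaMKI, ranked 10292. The Asator peak stood at 42.9%, 35.0% and 29.2% in replicates 1, 2 and 3, and the CaMKI peak at 38.5%, 24.9% and 60.0%. The replicate values of the peaks on either side of the threshold overlapped.

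Support in the single replicates was close to the genome's. Of the 161 peaks, 103 were matched in all 3 replicate lists, or 64.0% (56.3 to 71.0), against 65.5% of all pooled peaks. A further 40 were matched in 2 lists, 17 in 1 and 1 in none. Close summits can match the same replicate peak, as 62 members did with another member in at least 1 list, 50 of them among the 103. Replicate 2, with the fewest peaks on the chromosome, was the only list to miss 19 peaks, while replicate 1 alone missed 10 and replicate 3 alone missed 11. Of the 59 reproducible peaks, 55 were in all 3 lists, or 93.2%, against 97.9% on the other arms.

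The 4 reproducible peaks that did not match in every replicate were at Hcf, Actbeta, ey and lncRNA:CR46488. The Hcf peak, at the start of the gene for the chromatin cofactor host cell factor, ranked 4630 in the pooled list and stood at 14.8% in replicate 1, with no matching summit in the other two. Actbeta, which encodes an activin-type ligand of the TGF-beta family, had 16.4% in replicate 1 and 42.6% in replicate 3, and no match in replicate 2. The peak at the start of ey, a Pax6 gene for eye development, stood at 17.0% in replicate 1 and 22.4% in replicate 2. The peak in lncRNA:CR46488, in a 1360 transposable element, stood at 24.2% in replicate 1 and 30.8% in replicate 2. All 4 were thus seen in replicate 1.

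Among the 103 members found in every list, ranks followed each other across replicates. Spearman's rho was 0.886 between replicates 1 and 2, 0.814 between 1 and 3, and 0.754 between 2 and 3, against 0.924, 0.862 and 0.891 on the other arms. These are descriptions over peaks that share their libraries and were chosen for being present in all of them. The members with the widest spread in the ranks of their matches were a summit 888 bp upstream of Sox102F (24.0%, 18.8% and 78.6% in replicates 1, 2 and 3), the start of zfh2 (47.0%, 99.3% and 57.4%), and a start of Asator (75.5%, 47.1% and 26.3%). At Sox102F the matches in replicates 1 and 2 are also those of a stronger neighbouring summit, ranked 7206, so that spread joins different summits. Between zfh2 and Asator, a different replicate was the weakest.

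Promoters held a larger share of the peaks on chromosome 4 than elsewhere. Of the 161 summits, 76 were at promoters, or 47.2% (39.6 to 54.9), against 33.1% on the other arms. Promoter windows make up 10.9% of the bases of chromosome 4 and 13.6% elsewhere. In the replicate lists the share was 46.6%, 50% and 43.8%, a mean of 46.8% ± 3.13, against 33.3% ± 0.700 on the other arms (SD, n = 3). Each replicate was higher on chromosome 4, with a mean difference of 13.5 percentage points ± 3.27 (exact sign-flip permutation test, two-sided, p = 0.25, the smallest possible). Among the reproducible peaks, 38 of 59 were at promoters, or 64.4%, against 49.4% elsewhere.

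Introns and other gene-body sequence were thinly covered. Introns and other parts of gene bodies held 34 summits, 21.1% of the members, although they take up 43.6% of the bases. The same class held 40.2% of summits and 40.3% of bases on the other arms. Coding exons held 2 summits, 1.24% against 18.2% of bases, while on the other arms 4.15% of summits fell in 13.1% of bases. Replicates 1, 2 and 3 had 9, 2 and 10 coding-exon summits on chromosome 4, or 3.83% ± 2.14 against 4.62% ± 0.392 elsewhere (SD, n = 3), so the lower pooled share was not seen in replicate 3. Intergenic sequence held 45 summits, 28.0% against 18.4% of bases, compared with 19.7% against 27.2% elsewhere. The 3′ UTRs held 3 summits and the 5′ UTRs outside promoter windows 1. Over the replicates, the gene-body share was 21.2% ± 2.20 on chromosome 4 and 39.6% ± 0.474 on the other arms, and the intergenic share was 26.2% ± 3.07 and 19.5% ± 1.11 (SD, n = 3).

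**Figure D3:**
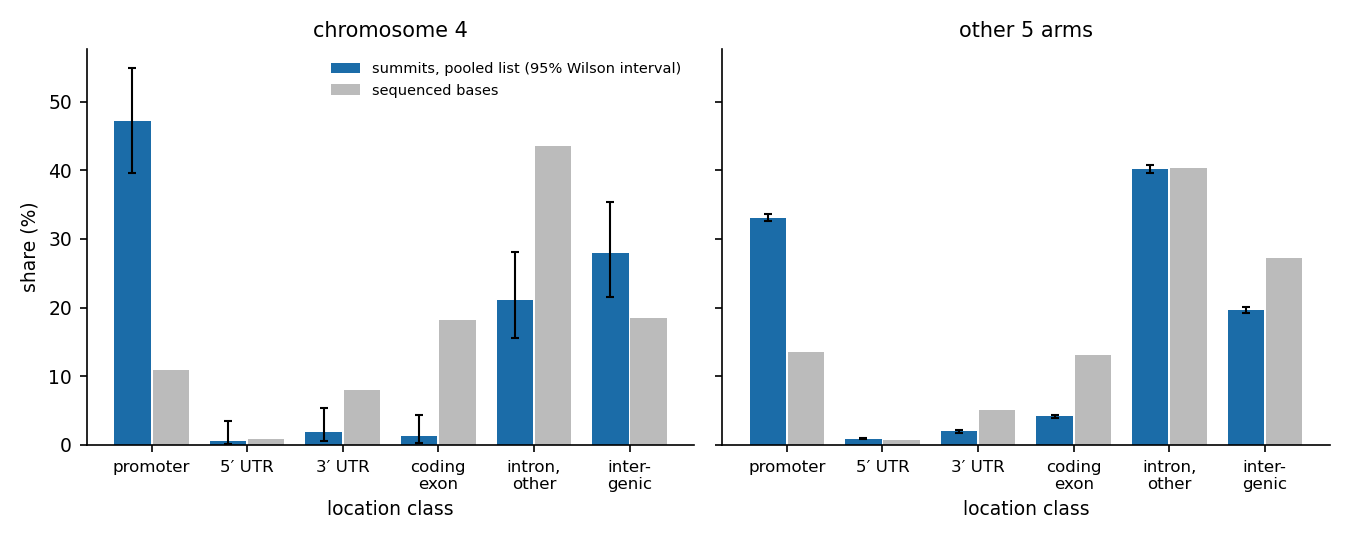
Share of pooled Phol summits (blue, with Wilson 95% intervals for counting error) and of sequenced bases (grey) in each location class, on chromosome 4 (left) and the other 5 arms (right). A summit takes the class promoter when it lies within 500 bp of any annotated start. On chromosome 4 promoters hold 47.2% of summits and 10.9% of bases, and introns and other gene-body sequence hold fewer summits than bases.

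The promoter peaks were the stronger ones. Their median rank was 9897 (33.0% of the list), and 38 of the 76 were in the reproducible list and 55 in all 3 replicate lists. The 85 peaks away from promoters had a median rank of 17339 (57.8%), with 21 in the reproducible list and 48 in all 3. The other arms showed the same tilt. There the reproducible list held 5042 of the 9884 promoter peaks, and 10205 of all 29838 peaks. Intergenic members had a median of 53.8% and those in gene bodies 65.0%. Promoter summits lay a median of 139 bp from the nearest start, against 129 bp on the other arms. Of the 76, 51 lay upstream of the start (67.1%, against 65.8% elsewhere) and 29 within 100 bp of it.

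Of the 80 protein-coding genes of chromosome 4, 44 had a pooled summit within 500 bp of a start and are called occupied, or 55.0%, against 55.4% of all 13945 genes. With reproducible peaks only, 33 were occupied, or 41.2%, against 40.8% of all genes. Both shares were near the genome's. In replicates 1, 2 and 3, 58, 42 and 44 genes were occupied, a mean of 60.0% ± 10.9 against 55.7% ± 0.987 on the other arms (SD, n = 3), with the chromosome 4 share higher in 2 of 3 (exact sign-flip permutation test, two-sided, p = 0.75). In all 3 replicates 38 genes were occupied, or 47.5% against 49.5% on the other arms. Occupied in none were 20 genes, or 25% against 38.1% on the other arms. Of the 36 genes without a summit at a start, 34 had none inside the gene either.

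Chromosome 4 genes were grouped by role into 5 small lists, and 55.0% of all 80 genes of the chromosome were occupied. Housekeeping genes and genes of the gene expression machinery had the largest share, with 9 of 11 occupied (81.8%). A reproducible peak occupied 7 of them. Differences between the lists were not tested. The housekeeping list includes RpS3A, MED26 and Rad23, described above. The peak of gw, whose product silences messenger RNAs with microRNAs, stood at 9.25%, 8.90% and 8.52% in replicates 1, 2 and 3, the closest agreement among the leading genes of this list. ATPsynbeta, a subunit of the mitochondrial ATP synthase, had a summit 432 bp from a start at 15.4%, 16.2% and 16.1%. That summit lies inside CG11076, 77 bp from a start of CG11076, so the start it belongs to cannot be told apart. Arf4, a small GTPase of vesicle traffic, Hcf, and the neighbours Tdg and Pur-alpha were also occupied. Tdg, a DNA glycosylase gene, and Pur-alpha, which encodes a nucleic acid-binding protein, share the peak ranked 10809 at their divergent starts. The translation initiation factor gene eIF4G1 and ND-49, of mitochondrial complex I, had no pooled summit at a start.

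Of 12 transcription factor genes, 8 were occupied (66.7%, against 55.0% of all chromosome 4 genes), 5 of them by a reproducible peak. Besides pan, Sox102F, pho and ey these included ci, the effector of Hedgehog signalling, at 15.03%, 15.8% and 8.15% in replicates 1, 2 and 3 (peak chr4:56356-56625). The ci peak also lies 22 bp from a start of the antisense RNA gene asRNA:CR43957, so the start it belongs to cannot be told apart. The homeodomain gene onecut had a summit 12 bp from its start at 57.6% in replicate 1 and 38.6% in replicate 2, with no match in replicate 3, and a second summit that stood at 81.1% in replicate 2 and 38.5% in replicate 3. The start of zfh2, which encodes a zinc-finger homeodomain protein, stood at 47.0%, 99.3% and 57.4%. Mitf, a regulator of lysosomal genes, had a summit at a start in replicate 1, at 45.6%, and in replicate 3, at 40.1%. The pooled list had no summit at the starts of toy, the second Pax6 gene of the fly, of sv, of NfI or of the forkhead gene fd102C. The nearest summit lay 933 bp from the start of toy and 30472 bp from that of NfI.

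Signalling genes divided evenly, with 5 of 10 occupied (50%, against 55.0% of all chromosome 4 genes), each of them by a reproducible peak. The receptor genes PlexA and PlexB, both for semaphorins, were occupied, with PlexB at 18.0%, 10.8% and 20.7% in replicates 1, 2 and 3. The kinase gene CaMKII stood at 14.5%, 11.7% and 18.1%. The start of lgs, whose product links beta-catenin to transcription in the Wnt pathway, stood at 21.2%, 22.4% and 10.96%. Of the ligand genes Actbeta was occupied and myo, for the TGF-beta family ligand myoglianin, was not. Ephrin and its receptor gene Eph, the adaptor gene Crk and fuss had no pooled summit at a start.

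Of 6 genes of synapse and neuron function 2 were occupied (33.3%), and of 6 muscle and cytoskeleton genes 3 (50%), against 55.0% of all chromosome 4 genes. Cadps, a gene for the release of dense-core vesicles, had a peak 31 bp from a start at 29.7%, 40.3% and 23.1%, and Syt7, a synaptotagmin gene, only weakly, at 74.3% of the pooled list. The metabotropic glutamate receptor gene mGluR, Ekar, unc-13 and dpr7 were not. In the last list Zyx, for the adhesion protein zyxin, stood at 13.5%, 13.5% and 21.4%, and Asator and Cals were occupied too. Their strongest pooled peaks at a start stood at 24.4%, 35.6% and 28.5% for Asator in replicates 1, 2 and 3. For Cals the values were 44.3%, 74.1% and 27.35%, far weaker than its peak in the 3′ UTR. The Zyx summit lies 51 bp from a start of Zyx and 0 bp from a start of apolpp, so its start cannot be told apart. The long gene bt, for the titin-like muscle protein projectin, the kinesin gene Kif3C and the ankyrin gene Ank had no pooled summit at a start. Of the 35 genes in none of the lists, 17 were occupied. The lists hold from 6 to 12 genes, and differences between them were not tested.

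Replicate 1 held more chromosome 4 promoters than the others. Of the 80 genes, 12 had a summit at a start in replicate 1 only, or 15%, against 2.44% of the genes of the other arms. In replicate 2 only there was 1 such gene (1.25% against 1.98%), and in replicate 3 only 1 (1.25% against 1.99%). Among them were Crk at 9.63% of the replicate 1 list, PIP4K at 12.4%, Dyrk3 at 12.6% and Hcf at 14.8%. Eph stood at 24.8%, bt and fd102C both at 40.9%, Ephrin at 41.6%, myo at 47.6%, unc-13 at 54.8% and Syt7 at 90.8%. Of the 12, only Hcf and Syt7 were occupied in the pooled list.

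The whole replicate 1 list shows the same on this chromosome. Of its 208 peaks, 75 had no match in the pooled list, against 11 of 134 in replicate 2 and 37 of 176 in replicate 3. Of all 208 peaks, 65 were matched in neither of the other replicate lists, or 31.2%, against 6.72% in replicate 2 and 18.2% in replicate 3. These unmatched counts are not given for the other arms. They do not show whether unmatched peaks are more common on this chromosome. Replicate 1 also had 34 summits in transposable elements, 16.3% of its chromosome 4 peaks, against 10.4% in replicate 2 and 6.82% in replicate 3. The same share was 0.383%, 0.479% and 0.453% on the other arms. None of the 75 unmatched peaks was among the strongest 1000 of its list, and their median stood at 59.8%. Read depth and the control behind each list are unknown, and their part in the surplus of replicate 1 was not tested.

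**Figure D4:**
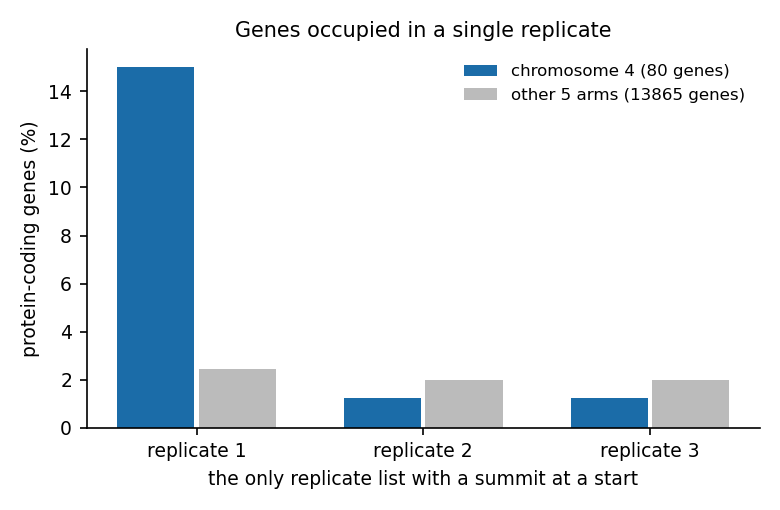
Percent of protein-coding genes with a Phol summit within 500 bp of a start in only 1 of the 3 replicate lists, for chromosome 4 (blue, 80 genes) and the other 5 arms (grey, 13865 genes). Bars start at 0 and have no error, since each is a single count. Replicate 1 reaches 15% on chromosome 4, and every other bar lies below 2.5%.

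Along the chromosome the peaks were very uneven. The first summit was at position 42594 and the last at 1233644 of 1348131 bases, and the median spacing was 1167 bp. The richest of 14 tiles of 100 kb, from 400001 to 500000, held 38 summits in the pooled list and 41, 26 and 37 in replicates 1, 2 and 3. The neighbouring genes dati and lgs are separated by 41.4 kb (chr4:395606-436956) that held 16 pooled summits, with 14, 11 and 15 in the replicates. The 12.8 kb between Asator and zfh2 held 9, and the 3.93 kb between PlexB and ci held 6. These 3 stretches make up 4.36% of the sequenced chromosome and held 31 summits, 19.3% of the members. The 8.18 kb between ci and RpS3A also held 6 and is not counted among the 3. The stretches were chosen for their counts, which are a description. Of the 31 summits, 8 were in the reproducible list, against 36.6% of all members. Some of these summits lie within one broad interval, since the 161 summits form 124 separate intervals after overlapping peaks are merged.

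In the stretch between dati and lgs, the summits were mostly far from any start and of middling strength. The strongest was the peak 1259 bp from lncRNA:CR43437, followed by a peak 6245 bp from mir-9385 that stood at 8.88%, 26.1% and 25.2% in replicates 1, 2 and 3. Of the 16, 6 were in all 3 replicate lists, against 64.0% of all 161 members. The reproducible list held 3 of the 16, against 36.6% of all members, so both shares were lower in this stretch. Between Asator and zfh2, the strongest summit lay 565 bp from Asator and stood at 17.6%, 18.3% and 13.7%. The short 2.12 kb between RpS3A and pan held 4 pooled summits, and 4 in every replicate, among them the strongest on the chromosome.

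The longest stretches without a pooled summit were of different kinds. The distal 114 kb of the chromosome (chr4:1233645-1348131) held none, and 77.1% of its bases are in transposable elements. The replicate lists had 1, 0 and 2 summits there. The next, of 99.7 kb (chr4:207134-306840), holds the starts of 8 protein-coding genes, which are Crk, CG31999, yellow-h, CG1674, dpr7, RhoGAP102A, NfI and Syt7. Of these Syt7 counts as occupied, since the summit that ends the stretch lies 360 bp from its start. This second stretch has 25.5% of its bases in transposable elements, close to the 25.1% of the whole chromosome, and held 5, 1 and 0 summits in replicates 1, 2 and 3. The third, of 64.4 kb (chr4:723213-787579), spans bt and is poorer in such elements, at 7.77%. It held 3, 1 and 1 summits in the replicates.

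Transposable elements held a share of the summits far above that on other arms but below their share of the sequence. On chromosome 4, 18 of 161 summits lay in an annotated element, or 11.2%, where these elements cover 25.1% of the bases. On the other arms the values were 0.466% of summits and 5.74% of bases. In the replicates 16.3%, 10.4% and 6.82% of chromosome 4 summits lay in an element, higher than elsewhere in 3 of 3 (exact sign-flip permutation test, two-sided, p = 0.25). The members in elements had a median rank of 59.8%, against 40.6% for the 143 outside. Reads from repeated sequence can map to several places, and how the authors treated such reads is not given in the sources used here.

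The elements involved were of 3 families. INE-1, the short element that is most numerous on this chromosome, held 10 summits, 1360 held 7, and Cr1a held 2, with 1 summit in annotations of both 1360 and INE-1. Per megabase of the element, INE-1 held 103 summits on chromosome 4 and 160 elsewhere, 1360 held 137 and 34.2, and Cr1a 83.2 and 14.1. The first 2 directions did not hold in every replicate. INE-1 had 164, 92.5 and 92.5 summits per megabase in replicates 1, 2 and 3 against 129, 153 and 162 elsewhere, so replicate 1 was higher on chromosome 4. The element 1360 had 215, 78.3 and 19.6 against 18.6, 46.6 and 34.2, so replicate 3 was lower on chromosome 4. The 1360 values rest on 11, 4 and 1 summits, and the Cr1a values on 4, 2 and 2. The strongest member in an element lay in an INE-1 copy 923 bp upstream of Ank. It stood at 18.9%, 24.6% and 21.9%.

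The G and C content of the summits was close to that of the whole chromosome. Within 50 bp of the summit, members had 35.4% G and C, and chromosome 4 as a whole has 35.2%. Summits of the other arms had 38.4%, below the 42.2% of their sequence. The replicates had 35.6% ± 0.555 on chromosome 4 and 38.5% ± 0.0960 elsewhere (SD, n = 3). Repeat-masked bases made up 24.4% of the windows on the members and 28.1% of the chromosome, while on the other arms they made up 19.4% and 20.1%. At promoter members the masked share was 19.0% at the summit, 27.5% at 1000 bp before it along the plus strand and 34.2% at 1000 bp after it. At the other members it was 31.0% at the summit, 27.6% before it and 30.2% after it.

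**Figure D5:**
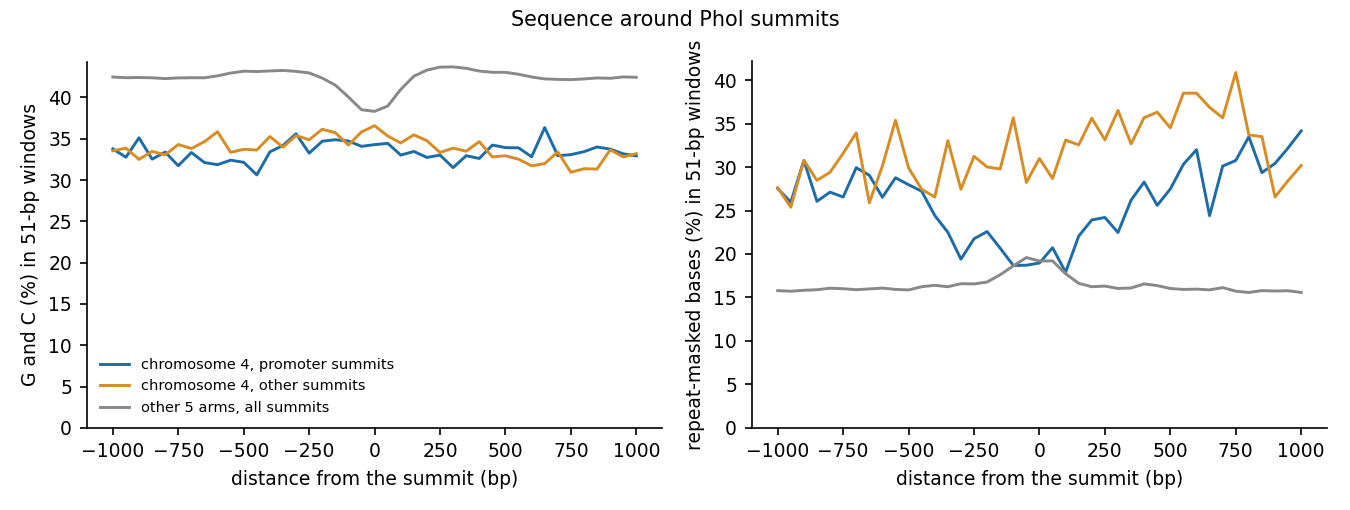
Percent of G and C (left) and of repeat-masked bases (right) in 51-bp windows, by distance from the Phol summit along the plus strand, as means over the 76 promoter summits of chromosome 4 (blue), its 85 other summits (orange) and all summits of the other 5 arms (grey). On the other arms G and C dip at the summit, from 43.2% at 500 bp before it to 38.3%. No such dip is seen on chromosome 4, where the promoter line is at 34.3% and the other at 36.6% at the summit. At 500 bp before the summit these lines are at 32.1% and 33.7%.

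The core GCCAT was found at 28 of the 161 summits, on either strand within 50 bp, or 17.4% (12.3 to 24.0). Windows of the same length 500 bp to either side held it in 9.01%. On the other arms the shares were 21.8% at summits and 19.1% at the flanks, so the starting level differs between chromosomes. In the replicates 12.98%, 14.9% and 19.3% of chromosome 4 summits held it, a mean of 15.7% ± 3.25 against 21.5% ± 1.47 elsewhere (SD, n = 3). The share was lower on chromosome 4 in 3 of 3 (exact sign-flip permutation test, two-sided, p = 0.25). Windows of the same length on annotated starts held GCCAT in 12.6% on chromosome 4 and 16.9% elsewhere. Among the members, 12 of 45 intergenic summits held the core and 10 of 76 at promoters.

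The longer site GCCATNTT, which contains GCCAT, was found at 9 of the 161 summits, or 5.59% (2.97 to 10.3), against 2.17% of flanks. On the other arms it was at 5.16% of summits and 1.79% of flanks, and windows on starts held it in 3.28% on chromosome 4 and 1.98% elsewhere. The 9 ranged in rank from 430 to 22093. They include 3 of the 10 strongest members, at pan, MED26 and asRNA:CR44029, and 5 of the 9 were in the reproducible list. Among reproducible peaks the site was at 8.47% on chromosome 4 and 6.62% on the other arms. No such share is given for the strongest peaks of the other arms. At pan the match is GCCATCTT and at MED26 GCCATTTT, as printed above. The Actbeta window holds GCCATATT and a second GCCAT. A match in a coding exon of ey ranked 11941 and stood at 44.7%, 51.2% and 29.0% in replicates 1, 2 and 3. The remaining matches were at Pur-alpha, 1923 bp upstream of bt, 9309 bp upstream of mir-9385 and 926 bp upstream of Mitf. The CG31998, PlexA and pho windows hold neither form, which says only that these letters are not in them.

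Other short words at fly promoters were rare at the members. The palindrome TATCGATA, the DNA replication-related element, was at 6 summits, or 3.73% (1.72 to 7.89), against 1.24% of flanks, and on the other arms at 1.57% against 0.261%. These included the starts of Actbeta and Cadps and the INE-1 copy upstream of Ank. GAGAG, the core of the GAGA factor site, was at 7 summits, 4.35% against 9.01% of flanks, and on the other arms at 10.4% against 12.7%. GGTCACAC, a motif of core promoters, was at 0 of 161, which allows a share of up to 1.86% (3 counts), against 1.21% on the other arms. Windows on starts held the 3 words in 4.92%, 10.4% and 1.64% on chromosome 4. All were searched on both strands, and no differences between these shares were tested.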

How the data were processed

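Chromatin immunoprecipitation followed by sequencing was done on 3 samples of 1 group. Peaks were called, per the authors' deposited readme notes, on each replicate and on the pooled replicates with a control alignment (dm6 build). The reproducible list holds the pooled peaks under a limit on the irreproducible discovery rate, per the same notes. The sources used here do not name the aligner, the caller or that limit, and the labels name no batch. The signal value deposited by the authors has no stated scale and only ranked peaks within a list. The deposited −log10 q-value was not used further.

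Summits were placed on the release 6 genome from RefSeq with the Ensembl release 115 annotation, in which 99.9% of start codons read ATG. Transposable elements were not counted as genes. Each summit took the first class that applied of promoter (500 bp), 5′ UTR, 3′ UTR, coding exon, gene body and intergenic. No peak row was identical between replicates (0). The test was an exact permutation of signs over the 3 replicate lists, run for 10 comparisons of chromosome 4 with the other 5 arms and for the density in repeat-rich tiles, none of which can fall below p = 0.25, so no adjustment was made. Replicate p-values measure only the spread between these samples. Wilson intervals treat neighbouring peaks as independent and cover counting error only. Depth per sample is unknown. Scripts used Python 3.11.15, numpy 2.4.6, pandas 2.3.3 and scipy 1.17.1 and were tested on simulated data.

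The members, lists of genes, motifs and rules for naming were chosen with earlier results of these data known. Named are the 15 strongest members, pho, the genes of the role lists with values for the 5 strongest of each, members on either side of the reproducible threshold, the 3 with the widest rank gap, and the 3 longest gaps. Arf102F and Thd1 are Arf4 and Tdg in the annotation. Other genes and stretches, the transposon families, the tiles rich in transposable elements, unmasked megabases, genes of a single replicate and the starts of transposable elements were chosen after seeing the data. Alternatives were other windows, denominators, lists, match rules and leaving out each replicate. The values of 1 gene occupied in a single replicate are not reported here.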

Additional observations from a re-analysis of the deposited data

How the results depend on the processing

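Of 40 alternative values, 30 lay on the same side of the other arms as the reported value and 10 on the other side, all 10 given here. The share of genes occupied, 55.0% against 55.4% elsewhere, changed sides with windows of 200 bp (46.2% against 43.7%) and 1000 bp (61.2% against 60.9%) and with the reproducible list (41.2% against 40.8%), and without each replicate it ranged from 53.8% to 63.8%. It was above the other arms without replicate 2 (63.8% against 55.5%) and without replicate 3 (62.5% against 56.2%). The median rank changed sides in the list of replicate 3 (50.1% against 49.997%). The share of members in the reproducible list, above that elsewhere in the whole list, was below it among peaks above the median signal (65.6% against 68.4%). The share matched in all lists was 42.9% with 100 bp between summits (49.98% elsewhere) and 93.2% among reproducible peaks (97.9%), and 70.2% to 75.8% in both other lists without each replicate. It was above the other arms without replicate 2 (75.8% against 71.5%), with 500 bp between summits (70.8% against 69.9%) and with interval overlap (69.6% against 68.9%). By construction, these rules change which peaks count. Density without each replicate ranged from 116 to 144 per megabase, against 225 to 226 elsewhere, and the promoter share from 45.2% to 48.3%. With starts of transposable elements added the promoter share was 65.8% against 34.3%. Chromosome 4 has 566 annotated insertions, so the added windows cover more of it. Their share of the bases is not given, and the pair does not show a stronger preference for promoters. No paired analysis between groups was possible because the series has a single group; the sign-flip tests pair chromosome 4 with the other arms of the same replicate. Read depth and the control are unknown, no test over 3 replicates can pass a threshold of 0.05, and 161 peaks leave wide intervals on rare classes and words.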
